A study of Mus musculus with 12 samples.

Results

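The genes of 8 C-type lectin receptors known from dendritic cells were examined, *Clec9a*, *Clec10a*, *Mgl2*, *Cd209a*, *Clec7a*, *Clec12a*, *Clec4a2* and *Ly75*. They were found by gene symbol in the table of bone marrow plasmacytoid dendritic cells (BM pDCs). Their NCBI gene identifiers there located them in the tables of lymphoid-primed multipotent progenitors (LMPPs) and CD115- common dendritic cell progenitors (CD115- CDPs). All 8 were present in each table, out of 17445 rows for LMPPs, 16821 for CD115- CDPs and 16896 for BM pDCs. RNA was sequenced from 12 libraries, 2 of HDAC3-KO cells and 2 of control cells for each of the 3 cell types. HDAC3-KO cells came from C57BL/6 *Hdac3* fl/fl CreERT2 mice, in which a Cre recombinase driven from the *Rosa26* locus, and so in principle in every cell, removes the floxed exon 3 of *Hdac3* once tamoxifen is given. Control cells came from *Hdac3* fl/fl mice, which carry the same floxed alleles without Cre. Both genotypes received tamoxifen on 5 consecutive days, followed by 7 days before the cells were sorted. Neither the age of the mice nor whether the libraries of a group came from separate mice is stated in the labels or methods, and the p values measure the spread between these libraries, which may be technical. LMPPs were sorted as the Flt3+ CD34+ part of lineage-negative Sca-1+ Kit+ bone marrow cells, and BM pDCs as CD11b- cells with intermediate CD11c, among other gates, that were positive for PDCA-1, B220 and Siglec H.

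C-type lectin receptors are surface proteins that recognise sugars, dead cells or crystals through a lectin-like domain, and many of them carry their ligand into the cell for antigen presentation. Some signal through the kinase Syk and the adaptor CARD9, either by a short tyrosine motif of their own or by pairing with adaptors such as FcRγ and DAP12, and others carry an inhibitory tyrosine motif that recruits phosphatases. Dendritic cell subsets are told apart in part by these receptors. CLEC9A is a marker of type 1 conventional dendritic cells (cDC1) and, in mice, is also found on pDCs. CD209A and MGL2 are best known from type 2 conventional (cDC2) and monocyte-derived dendritic cells.

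The genes of the galactose-binding pair, *Clec10a* (Mgl1) and *Mgl2*, lie next to each other on chromosome 11 and are near copies. In GENCODE vM21 transcripts (GRCm38), their longest coding sequences, of 927 bases for *Clec10a* and 1146 bases for *Mgl2*, were identical at 825 of 913 aligned bases (90.4%). The longest run without a difference was 183 bases. Of the distinct 50-base stretches in all annotated transcripts, 13.1% of those of *Mgl2* and 9.02% of those of *Clec10a* also occurred in another gene, 270 of them in the other member of the pair. A stretch of 60 coding bases is shown because it is the one with the most differences among those aligned without a gap, so that it shows how alike the genes are. It covers bases 458 to 517 of the *Mgl2* and 410 to 469 of the *Clec10a* coding sequence, and capitals mark the 6 bases that differ.
Mgl2: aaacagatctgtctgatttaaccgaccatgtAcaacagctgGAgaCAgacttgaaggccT
Clec10a: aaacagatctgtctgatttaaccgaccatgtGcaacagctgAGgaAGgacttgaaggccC

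Shared stretches were fewer in the other members. They made up 6.69% of those of *Clec4a2*, mostly shared with *Clec4a4* and *Clec4b1*, 4.02% of those of *Clec9a*, all shared with *Clec1b*, and 0.402% of those of *Clec12a*. None was found in *Cd209a*, *Clec7a* or *Ly75* (0 of 1677, 2683 and 6904 stretches). The deposited BM pDC counts of *Clec10a*, *Mgl2* and *Clec4a2* were not whole numbers in every library, while those of the other 5 members were whole to within 0.005.

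RefSeq promoter windows (GRCm38.p6) were given for 7 of the 8 members, all but *Clec10a*. The 250 bases before the start of *Clec9a*, the member that rose most in HDAC3-KO BM pDCs, and of *Cd209a*, a member that fell there, are printed because the genes went in opposite directions in the same cells. The *Clec9a* window is chr6:129408612-129408861 on the plus strand, and *Clec1b* is the only gene with an annotated exon overlapping it. The *Cd209a* window is chr8:3748985-3749234 on the minus strand, and overlaps no annotated exon. Capitals mark matches on either strand to CANNTG, the E-box that E proteins such as TCF4 (E2-2), the defining transcription factor of pDCs, are known to bind.
Clec9a: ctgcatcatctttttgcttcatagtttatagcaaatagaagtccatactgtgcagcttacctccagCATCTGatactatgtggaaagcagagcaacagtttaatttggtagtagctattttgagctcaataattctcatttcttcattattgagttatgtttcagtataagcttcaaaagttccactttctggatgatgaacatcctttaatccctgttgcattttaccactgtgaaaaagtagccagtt
Cd209a: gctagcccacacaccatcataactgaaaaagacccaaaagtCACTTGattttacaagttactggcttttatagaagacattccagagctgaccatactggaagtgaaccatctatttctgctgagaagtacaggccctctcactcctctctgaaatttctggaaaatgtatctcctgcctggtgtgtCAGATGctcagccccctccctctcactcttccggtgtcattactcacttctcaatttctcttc

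The *Clec9a* window held 1 match and the *Cd209a* window 2. At least 1 match was found in 6 of the 7 members' windows, against 66.0% of 27025 promoter windows of the same length. The letters GAGGAA, the core of sites bound by the transcription factor PU.1, were searched on both strands and occurred in 3 of the 7 windows (*Mgl2*, *Clec7a* and *Clec12a*), against 23.1% of all. No match of one motif overlapped a match of the other. The windows of *Mgl2*, *Clec12a*, *Clec4a2* and *Ly75* overlap annotated exons of the gene itself, so a match there need not lie upstream of the transcript.

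The labels were checked against *Hdac3*, the deleted gene, and against defining markers. *Hdac3* was at 16.87 and 9.87 FPKM in HDAC3-KO LMPPs, against 56.48 and 66.35 FPKM in control LMPPs. It was at 12.06 and 0.93 FPKM in HDAC3-KO CD115- CDPs, against 58.19 and 39.56 FPKM in controls, and at 15.6 and 15.85 FPKM in HDAC3-KO BM pDCs, against 38.91 and 37.8 FPKM in controls. Since only exon 3 is floxed, transcripts of the rest of the gene may still be counted. *Siglech*, a defining marker of pDCs, was at 944.98 and 854.97 FPKM in HDAC3-KO BM pDCs and at 1902.53 and 1951.06 FPKM in controls. *Csf1r*, which encodes CD115, was at 64.74 and 21.5 FPKM in HDAC3-KO CD115- CDPs and at 139.27 and 95.32 FPKM in controls, so that cells sorted as negative for the protein held its transcript. HDAC3-KO CD115- CDP library 2 stood apart, with 11288 genes detected, where the table's other libraries had 13684 to 15173. Control LMPP library 1 stood apart in erythroid transcripts, with a sum of 6840 FPKM over 5 erythroid genes where the remaining LMPP libraries had 87.3 to 227 FPKM. The BM pDC libraries summed to between 18117748 and 18462220 expected counts. No read totals came with the FPKM of the progenitors, whose depth is therefore unknown.

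BM pDCs were compared first, because 6 of the 8 receptor genes had their highest group there and the table holds counts. In HDAC3-KO BM pDCs, *Clec9a* and *Clec7a* rose and *Clec10a*, *Mgl2* and *Cd209a* fell, while *Clec12a*, *Clec4a2* and *Ly75* did not pass the test. Of all 12716 genes tested there, 21.6% rose and 22.5% fell, against which the 2 and 3 of 8 members are to be read (edgeR quasi-likelihood test on rounded expected counts, Benjamini-Hochberg adjusted p under 0.05). The split over all genes was 2753 higher and 2858 lower, against 1881 and 3696 with limma on FPKM as deposited. Both HDAC3-KO libraries lay below both controls for 5 members and above them for 2, where 48.9% and 27.2% of all tested genes did so. In bulk RNA of this kind, a change in the share of cells that use a gene and a change in the RNA per cell cannot be told apart.

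*Clec9a*, whose product (DNGR-1) binds the actin filaments of dead cells and promotes cross-presentation of their antigens, was at 207.5 and 196.27 FPKM in HDAC3-KO BM pDCs, against 46.34 and 51.2 FPKM in control BM pDCs. Both HDAC3-KO libraries lay far above both controls, and the means differed 4.14-fold. These values rested on 12459 and 11859 expected counts in the HDAC3-KO libraries and on 2791 and 3053 in the controls. The log2 change was 2.18 (SE 0.10; edgeR, adjusted p = 3.3e-05), and it lay between 2.04 and 2.24 under the alternatives tried. *Clec9a* is itself a cDC1 marker, so 13 other cDC1 genes were read beside it. Of these, 7 rose and 2 fell, and their summed level was 157 and 210 FPKM in HDAC3-KO BM pDCs, against 73.1 and 70.6 FPKM in controls. Most of the HDAC3-KO sums was *Id2* and *Wdfy4*. The 7 included *Id2* (log2 change 3.55), *Zbtb46* (3.43), *Batf3* (4.73) and *Zfp366* (5.72), the last 2 at no more than 0.4 FPKM in controls. The 2 that fell were *Cadm1* (−3.47) and *Tlr3* (−0.6). *Xcr1*, the chemokine receptor that defines mature cDC1, was at 0.8 and 0.74 FPKM in HDAC3-KO BM pDCs and at 0.85 and 0.77 FPKM in controls (log2 change 0.07, SE 0.21; edgeR, adjusted p = 0.83). No cDC1 gene of the list was at 0 in both libraries of either genotype. The part of cDC1 cells in the rise of *Clec9a* was not tested beyond these values.

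The galactose-type lectins moved the other way. *Clec10a*, whose product binds galactose-bearing sugars such as Lewis X, was at 52.22 and 47.67 FPKM in HDAC3-KO BM pDCs, against 217.81 and 226.47 FPKM in controls. Its log2 change was −2.02 (SE 0.09; edgeR, adjusted p = 3.3e-05), and the control mean was 4.45-fold the HDAC3-KO mean. *Mgl2*, the second galactose-type lectin, was at 1.23 and 0.84 FPKM in HDAC3-KO BM pDCs, against 11.21 and 11.13 FPKM in controls. The expected counts behind these values were only 34 and 23 in HDAC3-KO cells and 304 and 289 in controls. The log2 change of *Mgl2* was −3.25 (SE 0.19; edgeR, adjusted p = 4.8e-05), the largest of the 8 members in BM pDCs. Because of the shared stretches counted above, the division of reads between *Clec10a* and *Mgl2* is uncertain, and the level of *Mgl2* is the more exposed since *Clec10a* was far more abundant in the same libraries. Both genes fell under each of the alternatives tried for BM pDCs.

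*Cd209a*, a mouse relative of human DC-SIGN that binds mannose- and fucose-bearing sugars, was at 35.36 and 18.63 FPKM in HDAC3-KO BM pDCs, against 80.25 and 78.78 FPKM in controls. The HDAC3-KO libraries differed from each other more than the controls did, but both lay below both controls. The log2 change was −1.43 (SE 0.23; edgeR, adjusted p = 0.0027). Summed over 14 pDC markers, which also fell (11 of 14, with none higher), the level was 4700 and 4250 FPKM in HDAC3-KO BM pDCs, against 9960 and 10300 FPKM in controls. The 12 cDC2 genes, another list to which *Cd209a* and *Mgl2* are related, were split, with 6 higher and 2 lower of 11 tested. The 12 summed to 1320 and 1780 FPKM in HDAC3-KO BM pDCs against 1210 and 1170 FPKM in controls. Most of these sums was *Cd7*, at 964.91 and 1354.39 FPKM in HDAC3-KO cells against 881.33 and 870.66 FPKM in controls. The 6 that rose were *Itgam* (log2 change 3.98), *Il1r2* (2.33), *S100a4* (1.82), *Ccr2* (1.69), *Cx3cr1* (1.25) and *Cd7* (0.54). *Itgam*, which encodes CD11b, was at 43.81 and 54.98 FPKM in HDAC3-KO BM pDCs against 4.08 and 2.8 FPKM in controls. Cells sorted as CD11b- thus held its transcript. The 2 that fell were *Sirpa* (55.63 and 46.47 FPKM against 108.45 and 104.62 FPKM, log2 change −0.91) and *Klf4* (log2 change −0.54). The part of these cell type markers in the lower *Clec10a*, *Mgl2* and *Cd209a* was not tested.

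*Clec7a* encodes Dectin-1, the receptor for fungal beta-glucans. It was low, at 3.1 FPKM in both HDAC3-KO BM pDC libraries against 2.54 and 2.11 FPKM in controls, and rested on 122 and 123 expected counts in HDAC3-KO cells and 100 and 82 in controls. The log2 change of 0.55 (SE 0.18; edgeR, adjusted p = 0.041) lay just under the threshold. The call was lost without HDAC3-KO library 2 (adjusted p = 0.057), without control library 1 (0.10) or without control library 2 (0.26), and with DESeq2 (0.16), limma on log2(FPKM + 0.5) (0.079) or no filter (0.059).

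The inhibitory receptors differed from each other. *Clec12a*, which encodes a receptor for uric acid crystals with an inhibitory motif, was abundant in every BM pDC library, at 227.71 and 201.48 FPKM in HDAC3-KO cells against 229.53 and 251.84 FPKM in controls. The genotypes did not overlap, but after the scaling of libraries in edgeR (trimmed mean of M values) the log2 difference was −0.04 (SE 0.09, adjusted p = 0.73). *Clec4a2*, which encodes the inhibitory receptor DCIR, was at 0.91 and 2.34 FPKM in HDAC3-KO BM pDCs, against 3.22 and 3.32 FPKM in controls. Its log2 difference of −0.81 (SE 0.40; edgeR, adjusted p = 0.14) passed the test without HDAC3-KO library 2 (−1.54, adjusted p = 0.0036), and by limma on log2(FPKM + 0.5) (−0.91, adjusted p = 0.041). The lower count of the 2 HDAC3-KO libraries was 19 and the higher 43, so this gene was close to the limit of what the depth can show.

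*Ly75* encodes DEC-205, an endocytic receptor of the mannose receptor family. It was close to absent from BM pDCs, with 0.32 and 0.4 FPKM in HDAC3-KO cells and 0.42 and 0.35 FPKM in controls. A difference was not detectable at this depth (log2 0.06, SE 0.30; edgeR, adjusted p = 0.88), with 31 and 39 expected counts in HDAC3-KO cells and 40 and 33 in controls.

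**Figure D1:**
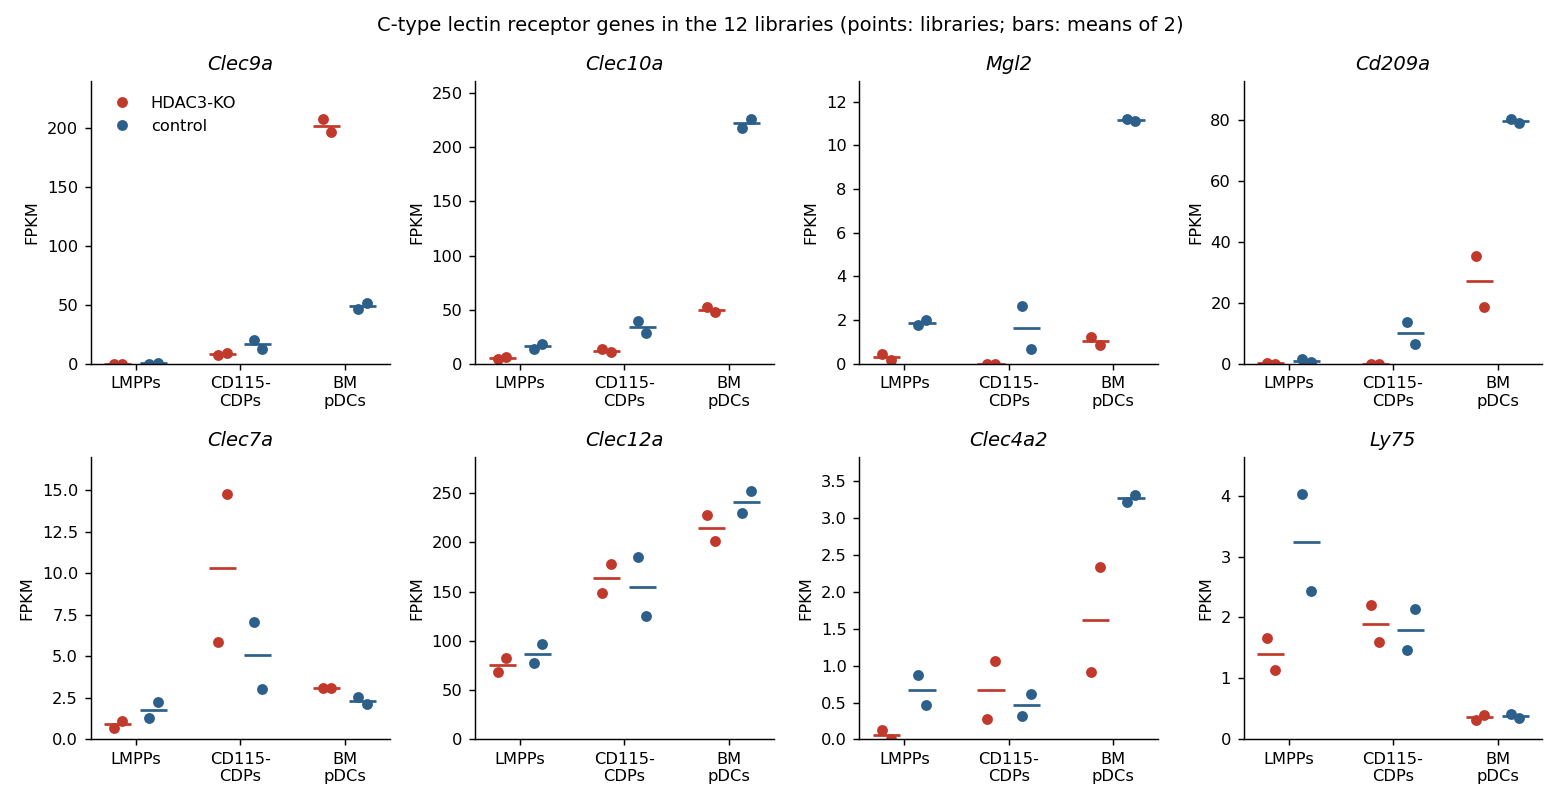
FPKM of each receptor gene (vertical axes, linear from 0, a scale for each gene) in HDAC3-KO and control libraries of LMPPs, CD115- CDPs and BM pDCs, where points are libraries and bars the means of 2. In BM pDCs the HDAC3-KO points of *Clec9a* (207.5 and 196.27 FPKM) sit above the controls (46.34 and 51.2 FPKM), and those of *Clec10a*, *Mgl2* and *Cd209a* sit below them.

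The receptors also changed in proportion. Summed over the 8 genes, the level was 528.35 and 470.73 FPKM in HDAC3-KO BM pDCs, against 591.32 and 625.2 FPKM in controls. *Clec9a* made up 39.3% and 41.7% of this sum in HDAC3-KO BM pDCs, against 7.84% and 8.19% in controls. *Clec10a* made up 9.88% and 10.1% of it in HDAC3-KO BM pDCs, against 36.8% and 36.2% in controls. *Clec12a* held a like share in all 4 libraries, with 43.1% and 42.8% in HDAC3-KO cells and 38.8% and 40.3% in controls. FPKM is a value per transcript length, so these shares compare genes, and they are a description without a test.

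**Figure D2:**
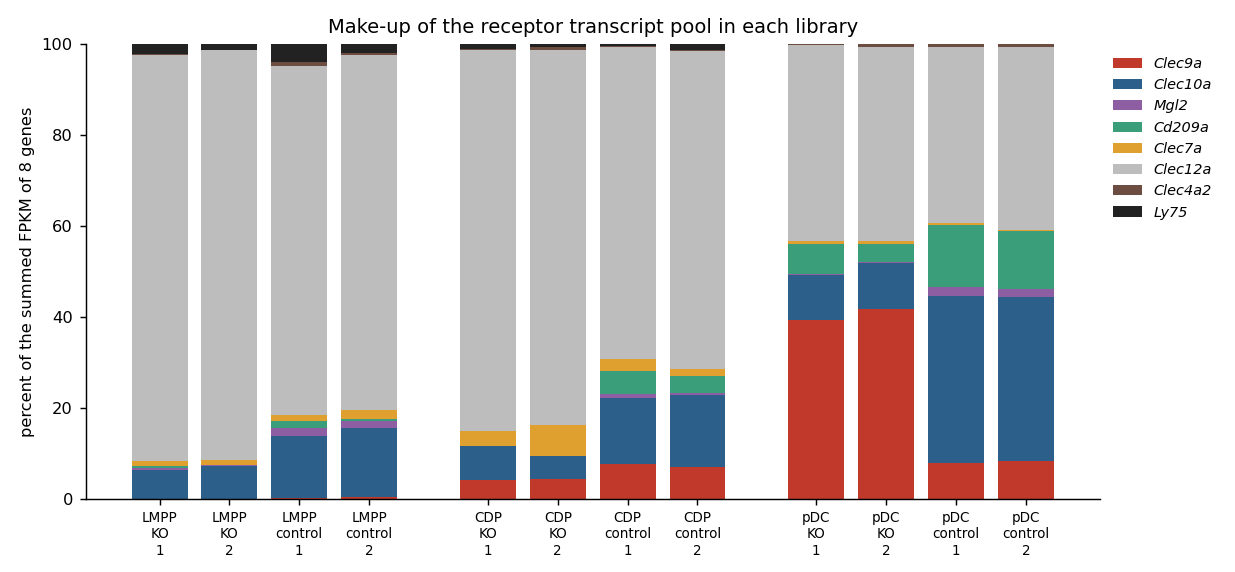
Share of each gene (percent, vertical axis) in the summed FPKM of the 8 receptor genes in each of the 12 libraries, with HDAC3-KO left of control within each cell type. *Clec9a* takes 39.3% and 41.7% of the sum in HDAC3-KO BM pDCs, against 7.84% and 8.19% in controls, and *Clec12a* is the largest part in LMPPs and CD115- CDPs.

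In LMPPs, multipotent progenitors upstream of dendritic cells, 5 of the 8 members were high enough to test (at least 1 FPKM in at least 2 libraries). *Clec10a*, *Mgl2* and *Ly75* fell in HDAC3-KO LMPPs and none rose, also at an unadjusted p under 0.05 (limma on log2(FPKM + 0.5), threshold on the adjusted p 0.05). For *Mgl2*, only the controls reached 1 FPKM, so a rise could not have been found. Of the 11146 genes tested, 18.8% fell and 4.31% rose, and the median log2 change over all of them was −0.23, so the changes here are to be read against a table shifted downwards. With median ratio scaling, which removes this shift, 863 genes rose and 999 fell, against 480 and 2096 on FPKM as deposited, and *Ly75* no longer passed (adjusted p = 0.11).

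*Clec10a* was at 4.8 and 6.5 FPKM in HDAC3-KO LMPPs, against 13.89 and 18.67 FPKM in controls. The log2 change of −1.45 (SE 0.24; limma, adjusted p = 0.00095) was beyond the median shift, and it was lost only without a filter on low values (adjusted p = 0.051). *Mgl2* was at 0.44 and 0.18 FPKM in HDAC3-KO LMPPs, against 1.77 and 2.0 FPKM in controls (log2 change −1.58, SE 0.33; limma, adjusted p = 0.0047). This call was lost without the filter (0.051) and with quantile normalization (0.067), and the gene was too low to be tested without control library 1, without control library 2 or at a minimum of 5 FPKM. *Clec10a* thus fell in LMPPs as in BM pDCs, from a lower level, while for *Mgl2* a fall was the only direction open to the test.

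*Ly75* was at 1.67 and 1.14 FPKM in HDAC3-KO LMPPs, against 4.03 and 2.44 FPKM in control LMPPs, its highest group. Its log2 change of −0.95 (SE 0.32; limma, adjusted p = 0.044) rested on every library but HDAC3-KO library 1, since the adjusted p was 0.12 without HDAC3-KO library 2, 0.39 without control library 1 and 0.061 without control library 2. *Clec7a* was at 0.7 and 1.1 FPKM in HDAC3-KO LMPPs and at 1.31 and 2.27 FPKM in controls, and did not pass (log2 −0.69, SE 0.34; limma, adjusted p = 0.15). *Clec12a* was the most abundant member, at 68.57 and 82.67 FPKM in HDAC3-KO LMPPs and at 77.62 and 96.54 FPKM in controls, with overlapping libraries (log2 −0.20, SE 0.17; limma, adjusted p = 0.41).

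The remaining members were near the floor of the LMPP table. *Clec9a* was listed at 0 and 0.02 FPKM in HDAC3-KO LMPPs, against 0.07 and 0.53 FPKM in controls. *Cd209a* was at 0.35 and 0 FPKM in HDAC3-KO LMPPs, against 1.59 and 0.51 FPKM in controls, and *Clec4a2* at 0.13 and 0 FPKM, against 0.88 and 0.47 FPKM. In all, 7 of 8 members had both HDAC3-KO libraries below both controls, and 4 of the 5 tested members did, against 48.2% of all genes tested. Markers of other cells moved in the same libraries. All 7 tested neutrophil genes fell, with a sum over the list of 47.5 and 16.3 FPKM in HDAC3-KO LMPPs against 617 and 429 FPKM in controls, and pDC markers fell in 7 of 10 tested, with sums of 211 and 260 FPKM against 317 and 328 FPKM. Granulocyte progenitor genes went the other way, with 3 of 5 higher and sums of 4660 and 5580 FPKM against 2290 and 2740 FPKM. The part of these markers in the lower lectin levels was not tested.

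In CD115- CDPs, a progenitor population that gives rise to pDCs, no gene passed the test in either direction (0 of 10832, limma, or 0.0%), and so neither did any of the 6 members tested. At an unadjusted p under 0.05, 5.95% of all genes were lower in HDAC3-KO cells and 3.06% higher, and *Clec10a* and *Cd209a* were lower. The values are therefore given side by side. *Clec10a* was at 13.22 and 10.96 FPKM in HDAC3-KO CD115- CDPs, against 39.19 and 28.55 FPKM in controls, which did not overlap (log2 −1.44, SE 0.33; limma, adjusted p = 0.39). *Cd209a* was listed at 0 in both HDAC3-KO libraries, against 13.72 and 6.59 FPKM in controls (limma, adjusted p = 0.23). As *Cd209a* met the filter through its controls alone, only a fall could be found for it. *Mgl2* was likewise listed at 0 in both HDAC3-KO libraries, against 2.65 and 0.66 FPKM in controls, and was too low to test.

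*Clec9a* was at 7.25 and 9.43 FPKM in HDAC3-KO CD115- CDPs, against 20.44 and 12.48 FPKM in controls. The difference therefore pointed down in these progenitors (log2 −0.91, SE 0.41; limma, adjusted p = 0.57), where in BM pDCs *Clec9a* rose. *Clec7a* was at 5.88 and 14.76 FPKM in HDAC3-KO CD115- CDPs, against 7.09 and 3.03 FPKM in controls, and the genotypes overlapped (log2 0.93, SE 0.64; limma, adjusted p = 0.65). Its highest value of all 12 libraries came from the HDAC3-KO library that stood apart. *Clec12a* was at 148.96 and 178.55 FPKM in HDAC3-KO CD115- CDPs, against 185.18 and 125.08 FPKM in controls (log2 0.10, SE 0.30, adjusted p = 0.93). *Ly75*, at 2.2 and 1.59 against 1.46 and 2.14 FPKM, and *Clec4a2*, at 0.28 and 1.06 against 0.32 and 0.61 FPKM, overlapped between the genotypes too. In all, 4 of 8 members, and 3 of the 6 tested, had both HDAC3-KO libraries below both controls, against 28.4% of all genes tested.

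The HDAC3-KO libraries of CD115- CDPs differed from each other so much that leaving out either of them changed the calls. Without HDAC3-KO library 2, the one that stood apart, *Clec9a* (log2 −1.09), *Clec10a* (−1.31) and *Cd209a* were called lower. Without HDAC3-KO library 1, *Clec9a* (−0.73), *Clec10a* (−1.57) and *Cd209a* were called lower and *Clec7a* higher (1.56). *Cd209a* could only be called lower in these fits, since it was listed at 0 in HDAC3-KO cells. These fits assume that the single HDAC3-KO library left varies as the controls do. pDC markers summed to 548 and 324 FPKM in HDAC3-KO CD115- CDPs, against 2270 and 1720 FPKM in controls, and cDC1 genes to 74.3 and 54.9 FPKM against 177 and 196 FPKM. Granulocyte progenitor genes went the other way, with sums of 3520 and 2470 FPKM against 1060 and 1240 FPKM. The part of these markers in the lectin values was not tested.

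**Figure D3:**
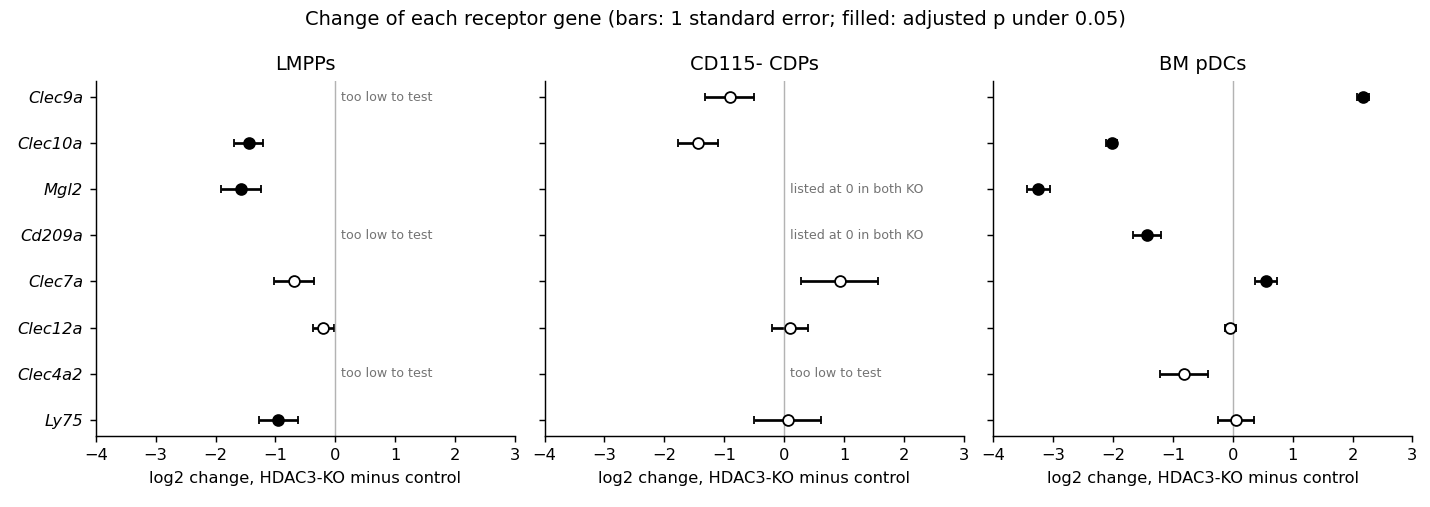
Log2 change of each receptor gene, HDAC3-KO minus control (horizontal axis), in LMPPs and CD115- CDPs (limma on log2(FPKM + 0.5)) and in BM pDCs (edgeR on expected counts), where bars are 1 standard error and filled points have an adjusted p under 0.05. *Clec9a* lies at 2.18 in BM pDCs and at −0.91 in CD115- CDPs, and *Clec10a* lies between −1.44 and −2.02 in all 3 cell types.

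The order of levels over the 6 groups was set out per gene. The 3 tables were normalised separately, so this is a description without a test, and 7 of the 8 members had the same order when the FPKM of every library was rescaled to a sum of 1000000. *Clec9a* averaged 8.34 ± 1.54 FPKM in HDAC3-KO and 16.5 ± 5.63 FPKM in control CD115- CDPs, and 202 ± 7.94 FPKM in HDAC3-KO and 48.8 ± 3.44 FPKM in control BM pDCs (SD, n = 2 libraries each), with LMPPs near 0. The order from the top was HDAC3-KO BM pDCs, control BM pDCs, control CD115- CDPs, HDAC3-KO CD115- CDPs, control LMPPs and HDAC3-KO LMPPs, and no neighbours in this order overlapped. *Clec10a* averaged 5.65 ± 1.20 FPKM in HDAC3-KO and 16.3 ± 3.38 FPKM in control LMPPs, 12.1 ± 1.60 FPKM in HDAC3-KO and 33.9 ± 7.52 FPKM in control CD115- CDPs, and 49.9 ± 3.22 FPKM in HDAC3-KO and 222 ± 6.12 FPKM in control BM pDCs. None of its groups overlapped either. The *Clec10a* level of HDAC3-KO CD115- CDPs thus lay below that of control LMPPs, the earlier progenitor.

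*Mgl2* was highest in control BM pDCs, and HDAC3-KO BM pDCs (1.03 ± 0.276 FPKM) overlapped control CD115- CDPs, which in turn overlapped control LMPPs. *Cd209a* followed the order of *Clec10a* for its first 4 groups, from control BM pDCs (79.5 ± 1.04 FPKM) to control LMPPs (1.05 ± 0.764 FPKM). *Clec12a* was ordered by cell type, with BM pDCs above CD115- CDPs and those above LMPPs, and the genotypes overlapped in CD115- CDPs and in LMPPs. *Clec7a* and *Ly75* differed from the rest in having their highest group outside BM pDCs, in HDAC3-KO CD115- CDPs (10.3 ± 6.28 FPKM), overlapping controls, and in control LMPPs (3.24 ± 1.12 FPKM). *Clec4a2* averaged 1.62 ± 1.01 FPKM in HDAC3-KO and 3.27 ± 0.0707 FPKM in control BM pDCs, and did not exceed 1.06 FPKM in any progenitor library.

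The neighbours of the members on the chromosome were read in BM pDCs, a choice made after their values were seen. *Clec12a*, *Clec12b*, *Clec1b*, *Clec9a*, *Clec1a*, *Clec7a* and *Olr1* lie in this order in the lectin cluster of chromosome 6. Of 8 other tested genes lying at least partly within 150 kb of *Clec9a* (chr6:129408862-129424764, GRCm38.p6), 5 rose and none fell in HDAC3-KO BM pDCs, against 21.6% of all genes tested that rose. Among the 5 was the member *Clec7a*, whose call was lost under several alternatives, as given above. *Clec12b*, an inhibitory receptor gene, was at 3.72 and 3.5 FPKM in HDAC3-KO BM pDCs, against 0.56 and 0.78 FPKM in controls (log2 change 2.59; edgeR, adjusted p = 0.00024). *Clec1a*, on the other side of *Clec9a*, was at 3.96 and 4.45 FPKM in HDAC3-KO BM pDCs, against 0.58 and 0.82 FPKM in controls (log2 change 2.74; edgeR, adjusted p = 0.0001). *Clec1a* encodes a receptor for fungal melanin.

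*Olr1*, the gene of a receptor for oxidised lipoprotein, and *Klre1*, of a natural killer cell receptor, rose by 1.71 and 1.73 on the log2 scale, with both under 0.4 FPKM in controls. *Clec12a*, *Gabarapl1* (log2 −0.22, adjusted p = 0.088) and *Cd69* (log2 −0.02, adjusted p = 0.89), in the same stretch, did not pass. *Clec12b* and *Clec1a* are transcribed from the strand opposite to *Clec9a*. They share no annotated exon base with it in GENCODE vM21 (0 of 3293 exon bases), although the RefSeq span of *Clec12b* runs across *Clec9a*. No source used here says whether the counting used strand, so reads from introns or ends of the abundant *Clec9a* cannot be told apart from reads of these low genes.

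Around *Clec10a* (chr11:70166623-70170836), 4 of 8 other tested genes fell and none rose, where 22.5% of all genes tested fell, with *Mgl2* and *Slc16a11* (0.16 and 0.31 FPKM in HDAC3-KO BM pDCs, 0.69 and 0.65 FPKM in controls) changed most. Around *Cd209a* (chr8:3743395-3748984), 3 of 10 others fell and none rose, a share near the 22.5% of all genes. One of these was the closely related *Cd209d*, at 78.69 and 53.12 FPKM in HDAC3-KO BM pDCs against 160.86 and 159.15 FPKM in controls (log2 change −1.15; edgeR, adjusted p = 0.0011). *Cd209d* was thus more abundant than *Cd209a* in all 4 libraries, while *Cd209e*, in the same cluster, was under 2.2 FPKM throughout and did not pass.

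**Figure D4:**
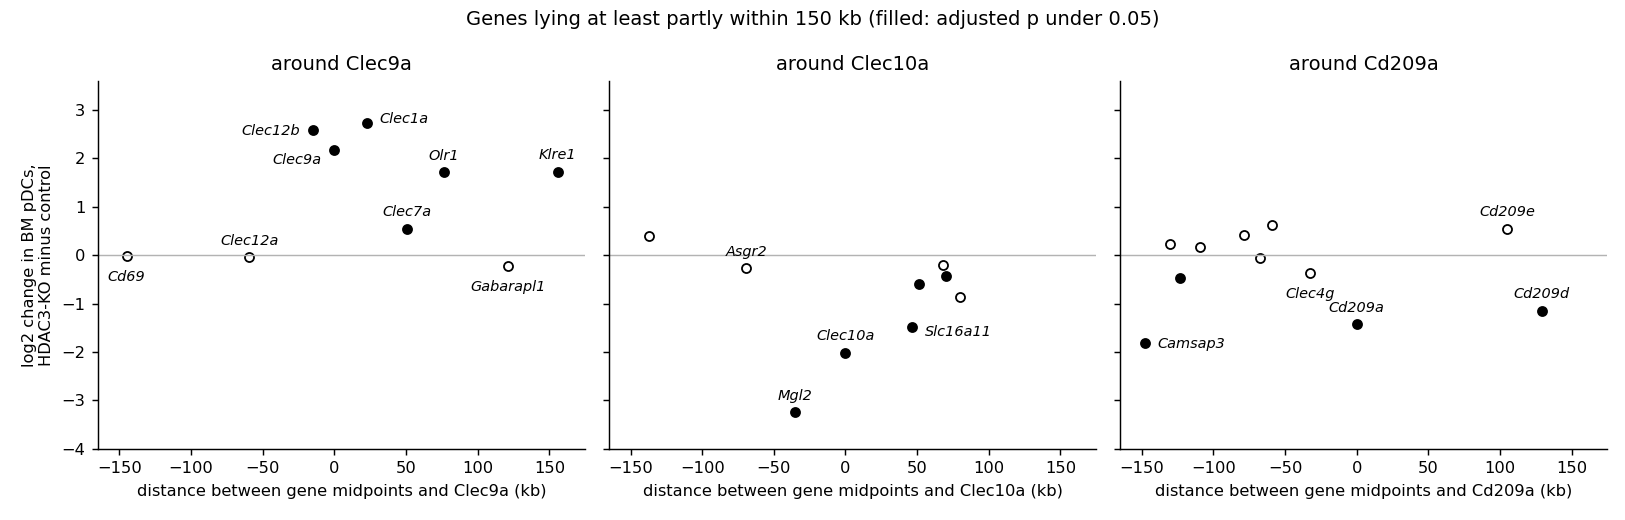
Log2 change in BM pDCs, HDAC3-KO minus control (vertical axis), of the tested genes around *Clec9a*, *Clec10a* and *Cd209a* against the distance between gene midpoints in kb (horizontal axes), where filled points have an adjusted p under 0.05 and some points carry no name. *Clec12b* (2.59) and *Clec1a* (2.74) lie on both sides of *Clec9a* (2.18), and *Clec12a* (−0.04) lies at 0.

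A wider list of 47 other C-type lectin genes was read from the same fits. In BM pDCs, 34 of them were tested, of which 10 rose, 5 fell and 19 did not pass, where 21.6% of all genes rose and 22.5% fell, with a median log2 change of 0.21 beside −0.01 over all genes. *Klrb1f*, a gene of the natural killer receptor complex, was at 40.96 and 43.72 FPKM in HDAC3-KO BM pDCs, against 3.04 and 3.06 FPKM in controls (log2 change 4.11, SE 0.14; edgeR, adjusted p = 1.9e-05). *Cd93*, a receptor gene of early progenitors and myeloid cells, rose by 0.93 on the log2 scale. *Cd72*, an inhibitory receptor gene of B cells, was at 39.3 and 32.84 FPKM in HDAC3-KO BM pDCs, against 81.7 and 89.88 FPKM in controls (log2 change −1.10), and *Klra17*, a gene of the Ly49 family that is also among the pDC markers, had a log2 change of −1.16. B-cell markers, which could enter such a sort, summed to 20.7 and 29.7 FPKM in HDAC3-KO BM pDCs, against 41.8 and 44.2 FPKM in controls, and their part in the fall of *Cd72* was not tested.

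In LMPPs, 15 of the other lectin genes were tested, of which 2 rose, 8 fell and 5 did not pass, where 4.31% of all genes rose and 18.8% fell. Their median log2 change was −0.53, beside −0.23 over all genes. *Clec2i*, a ligand gene for receptors of the *Klrb1* family, rose, at 16.77 and 10.27 FPKM in HDAC3-KO LMPPs against 1.74 and 3.94 FPKM in controls (log2 change 2.11, SE 0.32; limma, adjusted p = 0.00057). The early activation gene *Cd69* fell, at 45.6 and 34.36 FPKM in HDAC3-KO LMPPs against 73.01 and 98.19 FPKM in controls (log2 change −1.09). *Klrb1c* (−1.70), the P-selectin gene *Selp* (−1.05) and the thrombomodulin gene *Thbd* (−1.06) were among the others that fell. In CD115- CDPs, 23 were tested and 0 passed by limma, with 4 higher and 5 lower at an unadjusted p under 0.05. Of all genes tested there, 3.06% were higher and 5.95% lower at that threshold.

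Genes that act downstream of these receptors were read as a list of 19. In BM pDCs all 19 were tested, of which 8 rose, 3 fell and 8 did not pass, where 21.6% of all genes rose and 22.5% fell. The median log2 change was 0.18, beside −0.01 over all genes. *Card9*, the adaptor that links Syk-coupled lectins to NF-κB, was at 16.18 and 22.28 FPKM in HDAC3-KO BM pDCs, against 9.22 and 7.39 FPKM in controls (log2 change 1.35, SE 0.19; edgeR, adjusted p = 0.0013). The phospholipase gene *Plcg2* (0.93), the NF-κB subunit gene *Nfkb1* (0.85) and *Nfatc1* (0.59), a transcription factor gene, rose as well. *Tyrobp*, which encodes the adaptor DAP12, was at 1272.34 and 1196.21 FPKM in HDAC3-KO BM pDCs, against 2299.55 and 2323.23 FPKM in controls (log2 change −0.77, SE 0.09; edgeR, adjusted p = 0.00057). The kinase gene *Src* (−1.35) and *Syk* (97.14 and 90.19 FPKM against 140 and 127.3 FPKM; −0.38, adjusted p = 0.015) fell too, *Syk* being named here after its values were seen.

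In LMPPs, 18 signalling genes were tested, of which 1 rose, *Tyrobp*, 2 fell, among them *Nfkb1*, and 15 did not pass, where 4.31% of all genes rose and 18.8% fell. *Tyrobp* was at 390.49 and 420.11 FPKM in HDAC3-KO LMPPs, against 159.31 and 168.21 FPKM in controls (log2 change 1.30, SE 0.17; limma, adjusted p = 0.00016), so that it rose in LMPPs and fell in BM pDCs. *Nfkb1* did the opposite, with a log2 change of −0.48 in LMPPs (adjusted p = 0.047). The difference between the cell types was not tested. In CD115- CDPs, 18 were tested and 0 passed by limma, with 0 higher and 3 lower at an unadjusted p under 0.05, where 3.06% of all genes were higher and 5.95% lower.

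For each member that reached 5 FPKM in any library, the 3 genes of most similar pattern were found by Pearson's r of log2(FPKM + 0.5) over the 12 libraries, among 11560 genes. The 12 points share 3 cell types and 3 separately made tables, so r is a description. *Samhd1* (r = 0.992), *Gpr35* (0.985) and *Icosl* (0.984) were most like *Clec9a*. *Samhd1*, which encodes an enzyme that breaks down deoxynucleotides, was at 199.93 and 210.98 FPKM in HDAC3-KO BM pDCs, against 108.07 and 106.61 FPKM in controls. *Ceacam1* (0.991), *Smim5* (0.982) and *Trp53inp2* (0.974) were most like *Clec10a*, and *Epsti1* (0.974), *Erp44* (0.973) and *Ctif* (0.962) most like *Mgl2*. *Atp1b1* (0.991), *Klri2* (0.985) and *Hs3st1* (0.982) were most like *Cd209a*. *Atp1b1*, a sodium pump subunit gene among the pDC markers, was at 76.16 and 40.96 FPKM in HDAC3-KO BM pDCs, against 318.5 and 300.22 FPKM in controls, with the lower HDAC3-KO value in the same library as that of *Cd209a*. *Mlycd* (0.974), *Limk1* (0.974) and *Diaph2* (0.971) were most like *Clec12a*. For *Clec7a*, no r exceeded that of *Ash2l* (0.932), followed by *Lmln* (0.924) and *Rmi2* (0.918). Among the members, *Cd209a* and *Clec10a* (r = 0.932) and *Clec12a* and *Clec9a* (0.936) were the most alike pairs.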

How the data were processed

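RNA was sequenced from LMPPs, CD115- CDPs and BM pDCs, with 2 libraries per genotype and cell type, grouped by the submitters' labels. Bowtie2, RSEM and the build mm10 are named in the submitters' processing notes, with versions not given in the sources used here. Library protocols from 2 providers are described, and which was used for which library is not stated there. RNA of LMPPs and CD115- CDPs was taken in lysis buffer for small cell numbers and that of BM pDCs in Trizol. The authors deposited FPKM per gene and library for all 3 cell types. For BM pDCs the authors also deposited an expected count per gene, which was rounded, and TPM, which was not used. The authors' averages over libraries were not used.

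LMPPs and CD115- CDPs were tested with limma 3.58.1 (trend) on log2(FPKM + 0.5), for genes of at least 1 FPKM in at least 2 of 4 libraries. This scale understates changes of low genes. BM pDC counts were tested with edgeR 4.0.16 (filterByExpr, TMM, quasi-likelihood) in R 4.3.3. Tests were two-sided, within a cell type, over the whole table, with Benjamini-Hochberg adjustment and a threshold of 0.05. The tests were checked on simulated data. DESeq2 1.42.0, other scalings, filters and pseudocounts, replicate blocks and leaving out each library were the alternatives. The members, gene lists and naming rule were chosen with earlier results of these data known. The rule takes the 8 members, up to 6 called genes of smallest p per list and cell type, and the 3 genes most like each member that reached 5 FPKM.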

Additional observations from a re-analysis of the deposited data

Results flagged for a closer look

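The libraries of *Clec9a* lay on opposite sides of their controls in BM pDCs and in the progenitors, and only the rise in BM pDCs passed a test. In BM pDCs both HDAC3-KO libraries lay above both controls, with means 4.14-fold apart, while in CD115- CDPs both HDAC3-KO libraries (7.25 and 9.43 FPKM) lay below both controls (20.44 and 12.48 FPKM), a difference that did not pass (log2 −0.91, SE 0.41; limma, adjusted p = 0.57). In LMPPs both HDAC3-KO libraries (0 and 0.02 FPKM) were also below both controls (0.07 and 0.53 FPKM), at levels too low to test. *Clec7a* was 1.33-fold higher in HDAC3-KO than in control BM pDCs, without overlap, and was lower in both HDAC3-KO LMPP libraries (0.7 and 1.1 FPKM) than in both controls (1.31 and 2.27 FPKM), which did not pass there (limma, adjusted p = 0.15). These differences between cell types were not tested, because the tables were normalised separately.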

How the results depend on the processing

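Of 223 single log2 changes of members under the alternatives, 195 stayed on their side of the threshold, 17 calls were lost, 11 were gained and 0 called changes reversed. The sign turned in 9 of the 223, all of *Clec12a* or *Ly75* and none of them called. Fits in which a member fell under the filter are not among the 223, nor are calls that went missing that way among the 17. In LMPPs, *Clec10a* was fitted under 13 alternatives, but *Mgl2* under 10 and *Ly75* under 12. In LMPPs, members called lower numbered 3, against 0 without a filter on low values, 1 with at least 5 FPKM in 2 libraries, 1 with quantile normalization and 1 to 3 when a library was left out. The call that was lost most often was that of *Ly75*. In BM pDCs, members called higher numbered 2, against 1 without a filter on low counts, 1 with DESeq2, 1 with limma on log2(FPKM + 0.5) and 1 to 2 when a library was left out, the lost call being that of *Clec7a* each time. Where 1 library of a group was left, it was assumed to vary like the other group. In CD115- CDPs, where 0 members were called, 0 to 3 were called lower and 0 to 1 higher when a library was left out. Of 18 genes named as most alike, 11 stayed named with a pseudocount of 0.1. Over all genes, 480 rose and 2096 fell in LMPPs, against 50 and 451 without a filter, 962 higher without HDAC3-KO library 1, 255 and 980 without control library 1, 143 and 703 without control library 2, 227 higher without the trend, 863 and 999 with median ratio scaling and 777 and 874 with quantile normalization. In BM pDCs, 2753 rose and 2858 fell, against 1531 and 1395 without control library 1 and 1440 and 1310 without control library 2. In CD115- CDPs, against 0 in either direction, 1608 rose and 3448 fell without HDAC3-KO library 1, and 599 and 896 without HDAC3-KO library 2, while at most 2 genes fell and at most 1 rose with quantile normalization or without a control library.

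Libraries of equal number share only that number in the labels. Their deviations from the group means correlated at −0.10 in LMPPs, 0.24 in CD115- CDPs and −0.24 in BM pDCs. With the replicate number as a block, members called lower stayed at 3 in LMPPs and rose to 2 in CD115- CDPs (*Clec10a*, adjusted p = 0.046, and *Cd209a*, 0.00022), where 102 genes rose and 291 fell over all genes, and members called higher numbered 1 in BM pDCs, where *Clec7a* was lost (adjusted p = 0.066). With crossed numbers, added after the data were seen, 3 members were called lower in LMPPs (779 genes higher over all), and 2 higher and 3 lower in BM pDCs. Crossed numbers were fitted but not read for CD115- CDPs, so whether the calls gained there depend on the numbering is not shown here.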
